A study of Mus musculus with 9 samples.

Results

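The genes described here are 10 members of the Notch pathway, namely the receptors Notch1, Notch2 and Notch3, the ligands Dll1, Dll3 and Jag1, and the targets Hes1, Hes5, Hey1 and Hey2. They were chosen by name, with earlier results of these data known. All 10 were among the 17947 genes with enough counts to be tested, of 46517 genes counted. Their expression was read from bulk RNA-seq libraries of mouse glioblastoma tissue, 9 in all, from 3 models of mixed strain background with 3 libraries each. The design of the series sets tumours that stand for different cells of origin side by side. Each model is named after a Cre recombinase line. In Synapsin-cre the promoter is one active in neurons, in Nestin-creERT2 one active in neural stem and progenitor cells, and in NG2-creERTM that of Cspg4, active in oligodendrocyte precursors and pericytes. Tamoxifen switches on the 2 inducible forms, ERT2 and ERTM. The labels name neither the tumour-driving alleles of the models nor the age or sex of the mice, and no normal brain served as control. Nor do they say whether a model's libraries are of different animals, so the p-values cover the spread among these libraries alone, and some of it may be technical.

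Notch receptors are cut when a ligand on a neighbouring cell binds them. The freed intracellular part then enters the nucleus, joins the DNA-binding protein RBPJ and Mastermind coactivators, and turns on Hes and Hey genes. In the developing brain Hes and Hey proteins, which are repressors, hold progenitors back from becoming neurons. In vessels Notch3 is known as the receptor of pericytes and smooth muscle, and Hey2 as an arterial gene.

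The promoters of Hes5 and Hey2, the 2 targets whose levels moved most between libraries, are shown because each holds 2 copies of the letters that RBPJ is known to bind. The sequences are from RefSeq on GRCm38.p6, run 5′ to 3′ on the gene's own strand, and span 250 bases before to 50 bases after the start. Capitals mark GTGGGAA or its reverse complement TTCCCAC. The Hes5 window is chr4:154960673-154960972 on the plus strand, and the Hey2 window is chr10:30842734-30843033 on the minus strand.
Hes5: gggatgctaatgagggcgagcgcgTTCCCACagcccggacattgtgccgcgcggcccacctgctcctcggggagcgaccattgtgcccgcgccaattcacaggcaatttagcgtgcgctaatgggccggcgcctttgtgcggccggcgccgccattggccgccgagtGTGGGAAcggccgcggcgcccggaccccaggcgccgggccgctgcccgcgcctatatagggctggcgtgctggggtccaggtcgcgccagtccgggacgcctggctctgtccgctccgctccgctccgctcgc
Hey2: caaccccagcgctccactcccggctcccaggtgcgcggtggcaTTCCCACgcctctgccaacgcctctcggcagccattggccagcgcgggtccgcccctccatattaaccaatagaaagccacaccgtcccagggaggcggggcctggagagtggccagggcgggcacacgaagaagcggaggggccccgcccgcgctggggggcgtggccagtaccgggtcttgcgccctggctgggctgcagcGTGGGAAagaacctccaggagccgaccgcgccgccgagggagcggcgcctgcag
The matches begin 226 and 83 bases before the start of Hes5, and 207 and 4 bases before the start of Hey2. In both promoters the pair stands in opposite orientation, TTCCCAC first and GTGGGAA second. In RefSeq, 2097 of 32851 promoters (6.38%) held at least 1 match on either strand, and 84 (0.256%) held 2 or more. Entries were found for 8 of the 10 members, with 2 entries for Dll1 and none for Hes1 and Hey1. The other members' entries did not hold these letters, which says nothing of RBPJ outside these windows.

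The Dll3 promoter is shown for another element, since Dll3 was the member whose level varied most. Its capitals mark CAGCTG, an E-box, the kind of element that basic helix-loop-helix proteins are known to bind, which is its own reverse complement. The window is chr7:28301736-28302035 on the minus strand, and the match begins 7 bases before the start.
Dll3: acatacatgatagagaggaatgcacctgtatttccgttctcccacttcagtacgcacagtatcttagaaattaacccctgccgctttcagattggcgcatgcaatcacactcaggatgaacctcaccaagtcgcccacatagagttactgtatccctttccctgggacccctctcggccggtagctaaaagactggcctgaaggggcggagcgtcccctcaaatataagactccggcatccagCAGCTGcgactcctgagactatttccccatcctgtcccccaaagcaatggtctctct
These letters were in 5355 of the 32851 promoters (16.3%). Among the members they were also found 82 bases before the start of Jag1 and 132 bases before the start in the second Dll1 entry. A match is a run of letters, not a measured binding site.

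The libraries held from 23557398 counts in genes (Synapsin-cre replicate 1) to 41099967 (Nestin-creERT2 replicate 3). Synapsin-cre replicate 1 stood apart from the others. Its 10 neuronal markers summed to 5311 CPM (each library's counts brought to one total, with TMM scaling), against 476 to 1794 CPM in the other 8 libraries, and its level of the proliferation gene Mki67 was 29.3 CPM against 347 to 672 CPM. This library also had the highest sums of astrocyte (8204 CPM) and myeloid markers (937 CPM). Its sums of neural stem cell (875 CPM) and oligodendrocyte precursor markers (1091 CPM) were the lowest. Nestin-creERT2 replicate 1 carried the choroid plexus gene Ttr at 5695 CPM, with at most 14.5 CPM elsewhere. The 8 ependymal and choroid plexus markers, Ttr among them, summed to 5921 CPM in that library and 419 CPM in Synapsin-cre replicate 1. They summed to 14.1 to 72.3 CPM in the rest. The sum in Synapsin-cre replicate 1 was thus mostly of markers other than Ttr. Markers of astrocytes, oligodendrocyte precursors and neural stem cells were above 0 in every library. In bulk tissue, fewer cells that express a gene and less RNA per cell cannot be told apart.

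Per kilobase of exon, Hey1 was the most abundant member over the 9 libraries at a mean of 27.3 CPM per kb, followed by Dll3 at 23.5, Notch1 at 18.6 and Hes5 at 17.0 CPM per kb. Hey2 (11.2), Hes1 (10.9) and Dll1 (8.43) came next. Notch3 (6.78), Jag1 (6.31) and Notch2 (5.51 CPM per kb) were lowest. In each of the 9 neighbouring pairs of that order the gap was smaller than the larger of the 2 standard deviations over libraries. The difference between neighbours within each library was not computed, so their order was not tested. With the length of the longest transcript in place of all exons, Hey2 stood at 20.1 CPM per kb, above Hes5 at 18.2. On that length Notch1 stood at 27.9 CPM per kb, above Dll3 at 25.5, so the order depends on the length used. The spread of 1 gene between libraries was wide for some members and narrow for others. The highest library exceeded the lowest 49.1-fold in Dll3, 33.6-fold in Hey2 and 10.1-fold in Hes5, but only 2.38-fold in Notch3 and 2.74-fold in Jag1.

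**Figure D1:**
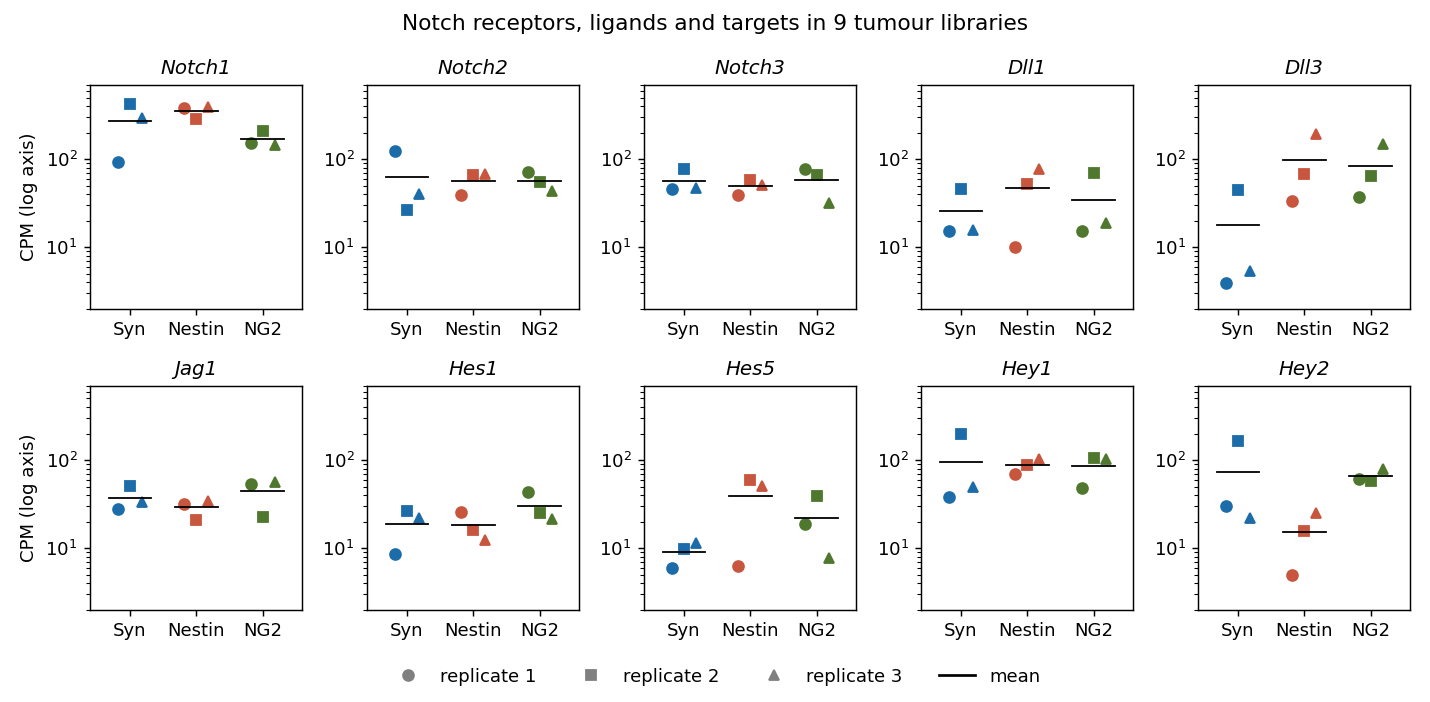
CPM of each of the 10 genes in every library on a log axis, by model (Syn, Synapsin-cre; Nestin, Nestin-creERT2; NG2, NG2-creERTM), with symbols for replicates and a line for the mean of 3. Hey2 in NG2-creERTM (57.1 to 79.3 CPM) lies above all Nestin-creERT2 libraries (4.94 to 25.3 CPM), and Dll3 in Synapsin-cre spans 3.98 to 44.5 CPM.

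Among the receptors, Notch1 was the one whose level separated a pair of models. Notch1 (ENSMUSG00000026923, chromosome 2, 26457903 to 26516663, minus strand, GRCm38), the main receptor of neural progenitors, stood at 387, 287 and 390 CPM in Nestin-creERT2 replicates 1 to 3. It was at 153, 208 and 145 CPM in NG2-creERTM and at 94.2, 423 and 293 CPM in Synapsin-cre. All 3 NG2-creERTM libraries were thus below all 3 Nestin-creERT2 libraries, while Synapsin-cre held both the lowest and the highest value of the 9. The model means were 355 ± 58.3 CPM (Nestin-creERT2), 168 ± 34.2 CPM (NG2-creERTM) and 270 ± 166 CPM (Synapsin-cre), each with its SD over 3 libraries. The log2 fold change of NG2-creERTM against Nestin-creERT2 was -1.08 (SE 0.49), which did not pass in edgeR (adjusted p = 0.453). With Synapsin-cre replicate 1 left out, the Synapsin-cre mean was 358 CPM, and the log2 difference in Notch1 from Nestin-creERT2 went from -0.39 to 0.01. Against NG2-creERTM it went from 0.68 to 1.09 (edgeR adjusted p = 0.283).

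Notch2 and Notch3 differed little between the model means. Notch2, a receptor shared by glia and many other tissues (chromosome 3, 98013527 to 98150361, plus strand), was at 124, 26.4 and 40.4 CPM in Synapsin-cre. It was at 39.1, 65.6 and 67.4 CPM in Nestin-creERT2 and at 72.0, 55.7 and 43.7 CPM in NG2-creERTM. Its highest value was in Synapsin-cre replicate 1, the library with the lowest Notch1, and the other Synapsin-cre libraries held 2 of its 3 lowest values. The log2 difference in Notch2 between Synapsin-cre and Nestin-creERT2 was 0.15 (SE 0.54) with that library and -0.79 without it. NG2-creERTM and Nestin-creERT2 had nearly the same Notch2 mean, 57.1 ± 14.2 against 57.4 ± 15.8 CPM, with a 95% interval of the log2 difference from -1.22 to 1.21. Notch3 (chromosome 17, 32120820 to 32166852, minus strand) was at 46.5, 77.0 and 47.0 CPM in Synapsin-cre, 39.2, 58.6 and 50.4 CPM in Nestin-creERT2 and 76.7, 66.2 and 32.3 CPM in NG2-creERTM. Its groups overlapped in every pair, and it was the steadiest of the members.

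Among the ligands, Dll3 varied most. Dll3, a ligand known to act inside the cell that makes it rather than on neighbours (chromosome 7, 28293553 to 28302238, minus strand), was at 3.98, 44.5 and 5.44 CPM in Synapsin-cre. Its levels were 34.0, 67.8 and 196 CPM in Nestin-creERT2 and 37.4, 65.2 and 148 CPM in NG2-creERTM. Synapsin-cre replicates 1 and 3 had the 2 lowest values, below every library of the other models, and Synapsin-cre replicate 2 lay among those models' libraries. Means were 18.0 ± 23.0, 99.1 ± 85.2 and 83.4 ± 57.4 CPM in Synapsin-cre, Nestin-creERT2 and NG2-creERTM (SD, n = 3 each). The log2 fold change of Dll3 in Synapsin-cre was -2.46 (SE 1.03) against Nestin-creERT2 (edgeR adjusted p = 0.440) and -2.21 (SE 1.02) against NG2-creERTM (edgeR adjusted p = 0.399). Neither passed the adjusted threshold of 0.05. Without Synapsin-cre replicate 2 the first was -4.44 (edgeR adjusted p = 0.423) and the second -4.19 (edgeR adjusted p = 0.285), and without replicate 1 they were -1.98 and -1.73. The summed level of 8 oligodendrocyte precursor markers was 1091, 4875 and 4167 CPM in the 3 Synapsin-cre libraries, in order of replicate, and 2670 to 10510 CPM in the other models. The part of these cells in the Dll3 levels was not tested.

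Dll1, a ligand of differentiating neural cells (chromosome 17, 15367354 to 15376872, minus strand), was split into a low and a high set of libraries in every model. It was at 15.5, 45.5 and 15.6 CPM in Synapsin-cre, 10.1, 52.2 and 77.7 CPM in Nestin-creERT2 and 15.2, 69.6 and 18.7 CPM in NG2-creERTM. Thus 5 libraries lay between 10.1 and 18.7 CPM and 4 between 45.5 and 77.7 CPM, and both sets held libraries of all 3 models. Jag1, a ligand made by astrocytes, progenitors and vessels (chromosome 2, 137081456 to 137116644, minus strand), was at 27.5, 50.3 and 33.5 CPM in Synapsin-cre. It was at 31.5, 20.6 and 34.5 CPM in Nestin-creERT2 and at 53.9, 22.8 and 56.4 CPM in NG2-creERTM. NG2-creERTM replicates 1 and 3 had the 2 highest Jag1 values and replicate 2 the second lowest. Against Nestin-creERT2 the log2 difference in NG2-creERTM was 0.62 (SE 0.42) for Jag1 and -0.44 (SE 0.82) for Dll1, with edgeR adjusted p = 0.616 and 0.883.

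Among the targets, Hey2 and Hes5 had the largest fold changes between models, of opposite sign against Nestin-creERT2. Hey2 (ENSMUSG00000019789, chromosome 10, 30832359 to 30842801, minus strand) was at 4.94, 15.4 and 25.3 CPM in Nestin-creERT2 and at 61.2, 57.1 and 79.3 CPM in NG2-creERTM, with no overlap. In Synapsin-cre it was at 30.2, 166 and 21.7 CPM, so that replicate 2 had the highest value of all and the other replicates lay near the top of Nestin-creERT2. The log2 fold change of Hey2 in NG2-creERTM against Nestin-creERT2 was 2.11 (SE 0.81, 95% interval 0.28 to 3.94), with an edgeR adjusted p of 0.405. Synapsin-cre against Nestin-creERT2 gave 2.25 (SE 0.82, edgeR adjusted p = 0.398), and 0.71 (edgeR adjusted p = 0.754) without Synapsin-cre replicate 2. In the fit of NG2-creERTM and Nestin-creERT2 alone, the log2 fold change of Hey2 was 2.12 (SE 0.53, edgeR adjusted p = 0.0820) and that of Notch1 was -1.08 (SE 0.27, edgeR adjusted p = 0.0789).

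Markers of other cell types also separated NG2-creERTM from Nestin-creERT2, the pair of models that Notch1 and Hey2 separated. Of all genes, 25.1% did not overlap between these models. Of 10 mural cell markers 5 were higher in all NG2-creERTM libraries than in all Nestin-creERT2 libraries, with summed levels of 493 to 945 CPM against 112 to 185 CPM. Mcam and Rgs5 were the most abundant of these, and without them the sum was 102 to 199 CPM against 46.9 to 103 CPM, which overlap narrowly. Of the markers left, Pdgfrb, Acta2 and Abcc9 were higher in all NG2-creERTM libraries, and the others overlapped. Of 10 markers of Schwann and neural crest cells 9 were higher in all NG2-creERTM libraries, with summed levels of 1990 to 5607 CPM against 182 to 993 CPM in Nestin-creERT2. Of 10 neuronal markers 9 were lower, at 476 to 758 CPM against 1409 to 1794 CPM. Endothelial markers overlapped in summed level, 190 to 387 CPM in NG2-creERTM and 125 to 224 CPM in Nestin-creERT2, with 3 of 10 higher in all libraries, near the share of all genes. Astrocyte markers summed to 1659 to 4078 CPM in NG2-creERTM and 4651 to 6731 CPM in Nestin-creERT2, with 4 of 10 lower and 1 higher in all libraries. Neural stem cell markers overlapped, at 1792 to 3852 CPM against 2372 to 2687 CPM, with 1 of 8 lower. Myeloid markers summed to 458 to 594 CPM against 650 to 686 CPM, with 1 of 8 lower. Higher in all NG2-creERTM libraries were 4 of 8 fibroblast markers (summed 1140 to 2784 against 451 to 2089 CPM) and 4 of 10 proliferation markers (1900 to 2576 against 1275 to 1936 CPM). Synapsin-cre was also above Nestin-creERT2 in summed mural (383 to 598 CPM), Schwann and neural crest (1129 to 3045 CPM) and endothelial (236 to 352 CPM) markers. Of 10 each, 3, 6 and 6 were higher in all Synapsin-cre libraries and 0 lower, where 14.7% of all genes did not overlap. The sums of the other lists above overlapped in that pair, and so did Notch1 and Hey2. No marker of these lists was at 0, and their part in the Notch1 and Hey2 differences was not tested.

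Hes5, a target and effector of Notch in neural progenitors (ENSMUSG00000048001, chromosome 4, 154960923 to 154962371, plus strand), was low in every Synapsin-cre library, at 5.89, 9.66 and 11.4 CPM. In Nestin-creERT2 it was at 6.26, 59.5 and 50.4 CPM, and in NG2-creERTM at 18.8, 39.4 and 7.67 CPM. The Synapsin-cre libraries were close together, and replicate 1 of Nestin-creERT2 and replicate 3 of NG2-creERTM fell within their range. Means were 8.97 ± 2.80, 38.7 ± 28.5 and 21.9 ± 16.1 CPM in Synapsin-cre, Nestin-creERT2 and NG2-creERTM (SD, n = 3 each). The log2 fold change of Hes5 in Synapsin-cre against Nestin-creERT2 was -2.11 (SE 0.82, edgeR adjusted p = 0.424). It was -2.65 (edgeR adjusted p = 0.434) without Nestin-creERT2 replicate 1, the library with high Ttr, and -1.89 without Synapsin-cre replicate 1. Nestin-creERT2 replicate 1 also had the lowest Dll1 and Hey2 of the 9 libraries, and the part of the choroid plexus in these levels was not tested.

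Hes1 and Hey1 did not follow Hes5. Hes1, the target with the broadest tissue range (chromosome 16, 30064384 to 30067796, plus strand), was at 8.54, 26.2 and 22.1 CPM in Synapsin-cre, 25.7, 16.1 and 12.4 CPM in Nestin-creERT2 and 43.0, 25.0 and 21.2 CPM in NG2-creERTM. Within Nestin-creERT2 the library with the highest Hes1 had the lowest Hes5. Hey1, a target active in neural progenitors and vessels (chromosome 3, 8663359 to 8667256, minus strand), was at 38.2, 195 and 49.0 CPM in Synapsin-cre. It was at 68.6, 87.6 and 104 CPM in Nestin-creERT2 and at 48.2, 106 and 104 CPM in NG2-creERTM. The 3 model means of Hey1 were close, at 94.1 ± 87.7, 86.7 ± 17.7 and 86.1 ± 32.8 CPM, although Synapsin-cre held both the lowest and the highest library. Without Synapsin-cre replicate 2, which was highest in both Hey1 and Hey2, the log2 difference in Hey1 was -1.04 against Nestin-creERT2 and -1.02 against NG2-creERTM. For NG2-creERTM against Nestin-creERT2 the 95% interval of the log2 difference was -0.41 to 1.85 for Hes1 and -1.35 to 1.33 for Hey1.

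Over the 10 genes, 0 passed the adjusted threshold in any of the 3 pairwise comparisons or in the test of any difference among the models (edgeR, Benjamini-Hochberg over 17947 genes). The share of all genes that passed was 0% in each of these 4 tests. At an unadjusted p under 0.05, 1 of 10 members was past the threshold for NG2-creERTM against Nestin-creERT2 (Hey2), against 11.3% of all genes (2021). For Synapsin-cre against Nestin-creERT2 there were 3 of 10 (Hey2, Hes5 and Dll3) against 10.8% (1937), for Synapsin-cre against NG2-creERTM 0 against 12.8% (2298), and for any difference 0 against 13.1% (2353). The smallest adjusted p of a member in the last test was that of Hey2 (edgeR adjusted p = 0.383). Groups did not overlap in 2 of 10 members for NG2-creERTM against Nestin-creERT2, with Hey2 higher and Notch1 lower, where 25.1% of all genes did not overlap. They overlapped in all 10 members in the other comparisons, where 14.7% of all genes (Synapsin-cre against Nestin-creERT2) and 13.8% (Synapsin-cre against NG2-creERTM) did not. A count of 1 or 2 of 10 near such shares is not a result about the members.

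The call of 0 members did not move with the samples in the fit, though the count over all genes did. With the 2 compared models alone, 1.39% of all genes passed for NG2-creERTM against Nestin-creERT2, 0.0291% for Synapsin-cre against Nestin-creERT2 and 0% for Synapsin-cre against NG2-creERTM. Without Synapsin-cre replicate 1 the shares were 0.671%, 1.48% and 0.00541%, and 1.87% for any difference. In each of these fits 0 of 10 members passed, and Notch1 at an adjusted p of 0.0789 in edgeR was the nearest in a pairwise comparison. DESeq2 called 621, 506 and 438 of 17348 genes in the 3 comparisons and limma voom 0 of 17947, each with 0 members. With such small shares of all genes called, 0 of 10 is not a result about the members. The median log2 fold change of the 10 members was -0.01 for NG2-creERTM against Nestin-creERT2 (all genes 0.02), 0.09 for Synapsin-cre against Nestin-creERT2 (all genes 0.13) and -0.15 for Synapsin-cre against NG2-creERTM (all genes 0.08). Their median size regardless of sign was 0.53, 0.38 and 0.34, against 0.47, 0.47 and 0.50 for all genes.

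**Figure D2:**
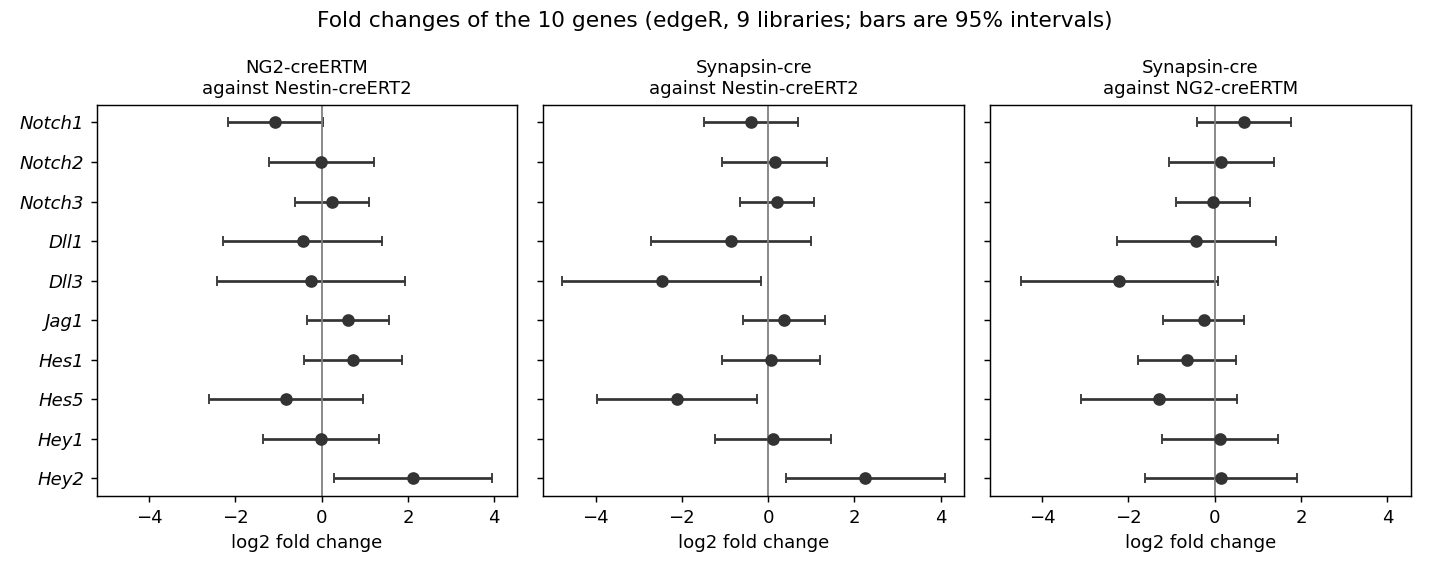
Log2 fold changes of the 10 genes in the 3 comparisons, fitted with edgeR on all 9 libraries, with bars for 95% intervals. The intervals of Hey2 in both comparisons with Nestin-creERT2, and of Dll3 and Hes5 in Synapsin-cre against Nestin-creERT2, do not reach 0 before adjustment over all genes.

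The make-up of the receptor and ligand pools per length was compared by adding Notch4 (the endothelial receptor), Dll4 (the endothelial ligand) and Jag2, which complete the canonical sets. Notch1 made up 65.5 ± 7.12% of the 4 receptors' summed CPM per kb in Nestin-creERT2, 44.9 ± 8.62% in NG2-creERTM and 52.8 ± 24.3% in Synapsin-cre (SD, n = 3 each). It was the largest receptor share in 8 libraries. In Synapsin-cre replicate 1 the Notch2 share was larger, at 43.3% against 24.9% for Notch1. Dll3 made up 59.6 ± 10.8% of the 5 ligands in Nestin-creERT2 and 54.6 ± 19.2% in NG2-creERTM, and was the largest ligand share in all 6 of these libraries. In Synapsin-cre it made up 18.6 ± 17.0%, with 7.21% and 10.4% in replicates 1 and 3 and 38.2% in replicate 2. The ligand with the largest share there was Jag2 in replicate 1 (39.8%) and Jag1 in replicate 3 (31.5%). Among Hes1, Hes5, Hey1, Hey2 and Heyl, the Hes5 share was 13.6 ± 7.23% in Synapsin-cre, 36.4 ± 21.9% in Nestin-creERT2 and 20.8 ± 12.2% in NG2-creERTM. The Hey2 share was 2.70 to 6.70% in Nestin-creERT2, below its range of 11.5 to 30.7% in Synapsin-cre and 14.1 to 25.9% in NG2-creERTM. These shares depend on the other genes of each pool as well as on the gene's own level, and were not tested. Hey2 was lower in Synapsin-cre replicate 3 than in Nestin-creERT2 replicate 3 (21.7 against 25.3 CPM), but its share was larger (11.5% against 6.70%). The summed level of the 5 targets was 40.8 CPM per kb in the first library and 82.2 CPM per kb in the second. They use the length of all exons, and the level of Hey2 in particular was higher with its longest transcript.

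**Figure D3:**
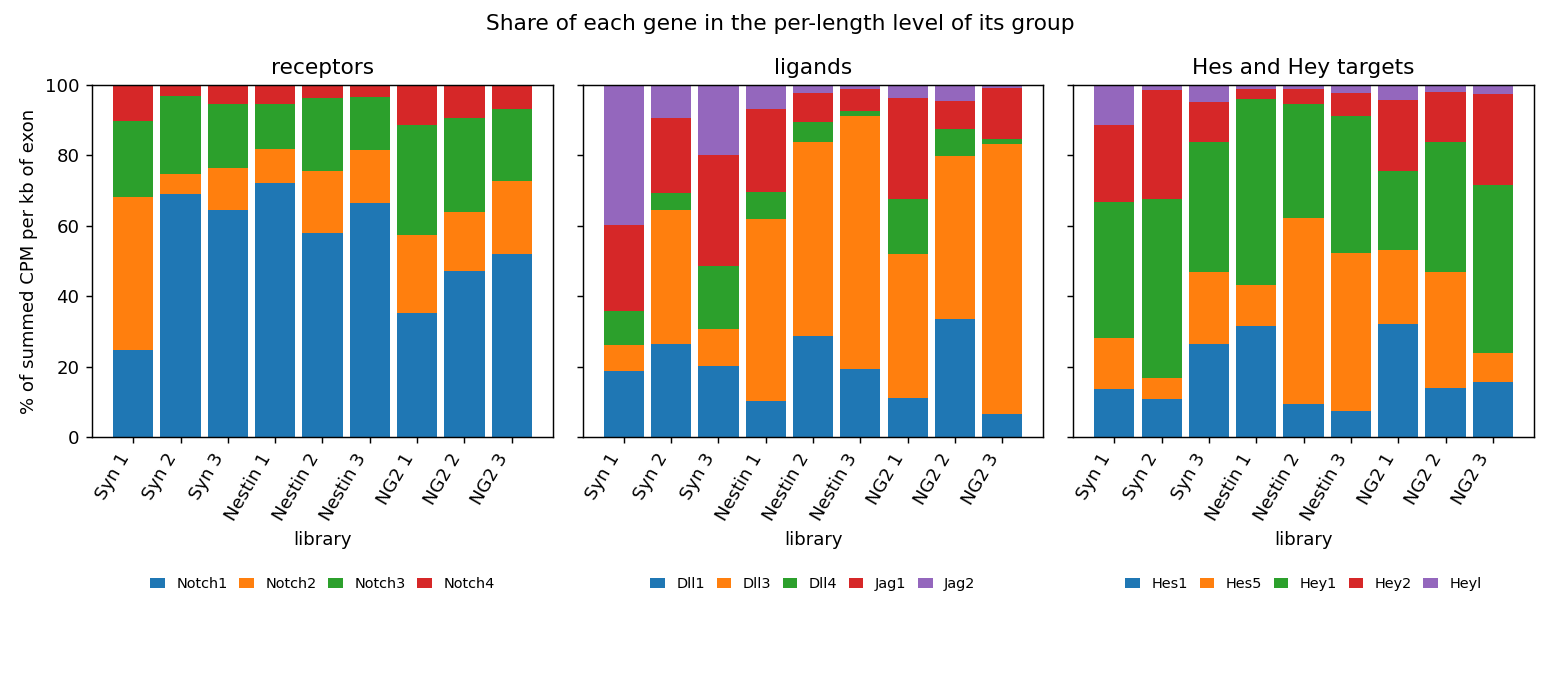
Share of each gene in the summed CPM per kb of exon of the receptors, the ligands and the Hes and Hey targets, with 1 bar per library. Notch1 is the largest receptor share in every library but Synapsin-cre replicate 1, and Dll3 is the largest ligand share in all Nestin-creERT2 and NG2-creERTM libraries.

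The members did not share 1 pattern across libraries. Over the 45 pairs of members, Pearson's r of log2 CPM across the 9 libraries ran from -0.68 (Notch1 with Notch2) to 0.80 (Dll1 with Hes5), with a median of 0.20 and 29 pairs above 0. The points share libraries and models, so these values are descriptions with no test. For Dll1 with Hes5, Spearman's rho was 0.70, and r was 0.78 without Synapsin-cre replicate 1 and 0.64 without the 2 libraries farthest in Dll1. The libraries with high Hes5 (Nestin-creERT2 replicates 2 and 3 and NG2-creERTM replicate 2) were also high in Dll1, whereas Synapsin-cre replicate 2 had Dll1 at 45.5 CPM and Hes5 at 9.66 CPM. Hes5 with Hey2 gave r of -0.02, and -0.04 without Synapsin-cre replicate 1. Hes5 with Hes1 gave -0.03, but -0.47 without that library and -0.69 without the 2 libraries farthest in Hes1, so the value near 0 rests on Synapsin-cre replicate 1. For Notch1 with Notch2, r was -0.41 without Synapsin-cre replicate 1, and for Notch2 with Hes5 it went from 0.20 to 0.75 when that library was left out.

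**Figure D4:**
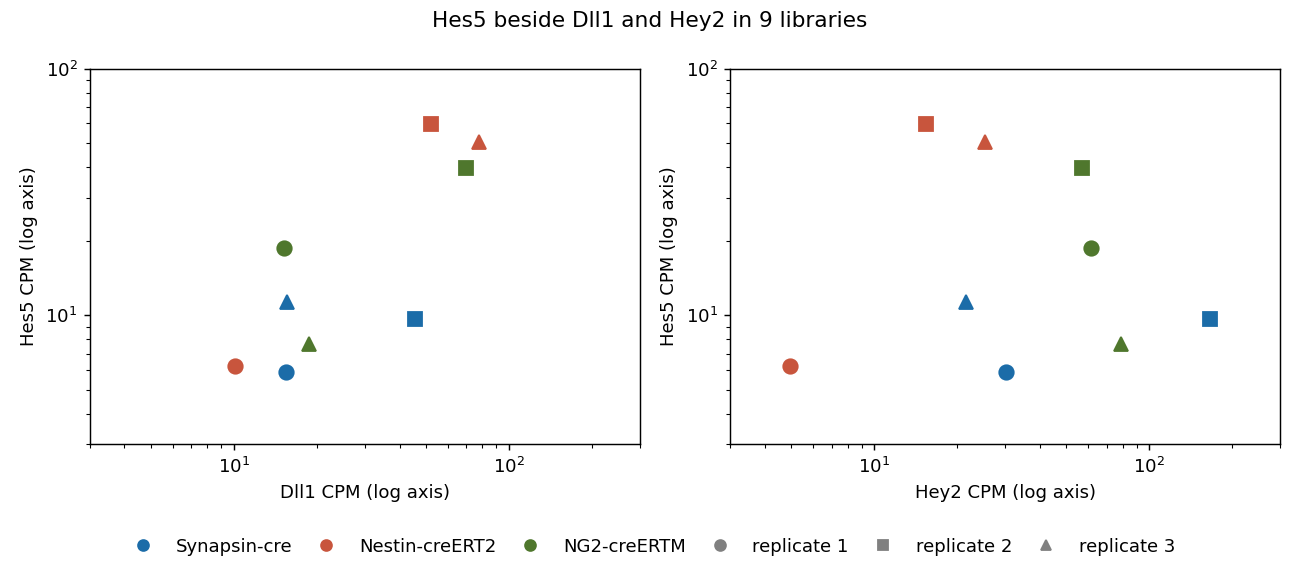
CPM of Hes5 against that of Dll1 and Hey2, each on log axes, with 1 point per library coloured by model and shaped by replicate. The libraries with Hes5 of at least 39.4 CPM are also the 3 with the highest Dll1 (52.2 to 77.7 CPM), while Hey2 shows no order with Hes5 (r -0.02).

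The rest of the pathway was described with a list of 45 genes, all of which were tested, and 0 passed the adjusted threshold in any comparison (edgeR). For Synapsin-cre against Nestin-creERT2, DESeq2 called Jag2 and Dlk1 (DESeq2 adjusted p = 0.0125 and 0.0251), beside 506 of all 17348 genes. For Synapsin-cre against NG2-creERTM it called Jag2 and Mfng (DESeq2 adjusted p = 0.0317 and 0.0360), beside 438 of 17348. For any difference it called Jag2, beside 868 of 17351. Between NG2-creERTM and Nestin-creERT2, 3 of 45 were higher and 2 lower at an unadjusted p under 0.05, a share near the 11.3% of all genes, so the values that follow describe genes and are no result about the pathway. Lfng, a fucose-modifying enzyme that tunes which ligands a receptor answers to, was at 12.8, 24.7 and 28.0 CPM in NG2-creERTM and at 75.7, 78.4 and 69.5 CPM in Nestin-creERT2. All NG2-creERTM libraries were below all Nestin-creERT2 libraries in Lfng, with a log2 fold change of -1.77 (SE 0.56, edgeR adjusted p = 0.335). Dner, a neuronal ligand, was at 6.05, 19.0 and 46.1 CPM against 173, 91.3 and 165 CPM, a log2 fold change of -2.59 (edgeR adjusted p = 0.413). Adam17 and Ncstn, parts of the machinery that cuts the receptor, had log2 fold changes of 0.96 and 0.99, and Hdac1, a corepressor subunit, had 1.33 (edgeR adjusted p from 0.359 to 0.413). Groups did not overlap in 11 of these 45 genes, close to the 25.1% of all genes. In the fit of these 2 models alone, Lfng (-1.78, edgeR adjusted p = 0.0487) and Hdac1 (1.33, edgeR adjusted p = 0.0485) passed, beside 1.39% of all genes.

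Jag2 and Mfng had an unadjusted p under 0.05 in Synapsin-cre against each of the other models, in comparisons that share the Synapsin-cre libraries. Of 45 genes 4 were higher and 3 lower by that threshold against Nestin-creERT2, and 5 higher and 2 lower against NG2-creERTM, beside 10.8% and 12.8% of all genes. Jag2 was at 53.7, 27.1 and 25.5 CPM in Synapsin-cre, 11.05, 7.23 and 6.96 CPM in Nestin-creERT2 and 8.03, 15.6 and 4.44 CPM in NG2-creERTM. All Synapsin-cre libraries were above all others in Jag2, with log2 fold changes of 2.07 (SE 0.54, edgeR adjusted p = 0.318) against Nestin-creERT2 and 1.92 (SE 0.54, edgeR adjusted p = 0.357) against NG2-creERTM. Mfng, another fringe enzyme, was below every other library in the 3 Synapsin-cre libraries, at 6.73, 5.66 and 13.5 CPM against 15.9 to 132 CPM. Its log2 fold changes were -2.40 and -2.69 (edgeR adjusted p = 0.377 and 0.357). Dll3 and Jag2 had an r of -0.83 over the 9 libraries (rho -0.80), and -0.57 without Synapsin-cre replicates 1 and 3, the 2 libraries farthest in Dll3. Past the unadjusted threshold against Nestin-creERT2 were also Dlk1 (3.46), Numb (0.99) and Hdac1 (1.13) with positive log2 fold changes, and Maml2 (-1.04) and the Notch target Nrarp (-1.0) with negative ones. Against NG2-creERTM these were Dner (2.65), Fbxw7 (1.26), Maml3 (1.0) and Dtx3 (0.88), and Adam10 (-0.62). Nrarp was at 26.4, 14.9 and 27.9 CPM in Synapsin-cre, below the 31.9, 58.1 and 48.5 CPM of Nestin-creERT2, while NG2-creERTM overlapped both at 35.9, 43.1 and 18.4 CPM. Without Synapsin-cre replicate 1, Dlk1 (4.0, edgeR adjusted p = 0.0443) and Hdac1 (1.52, edgeR adjusted p = 0.0485) passed against Nestin-creERT2, beside 1.48% of all genes.

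**Figure D5:**
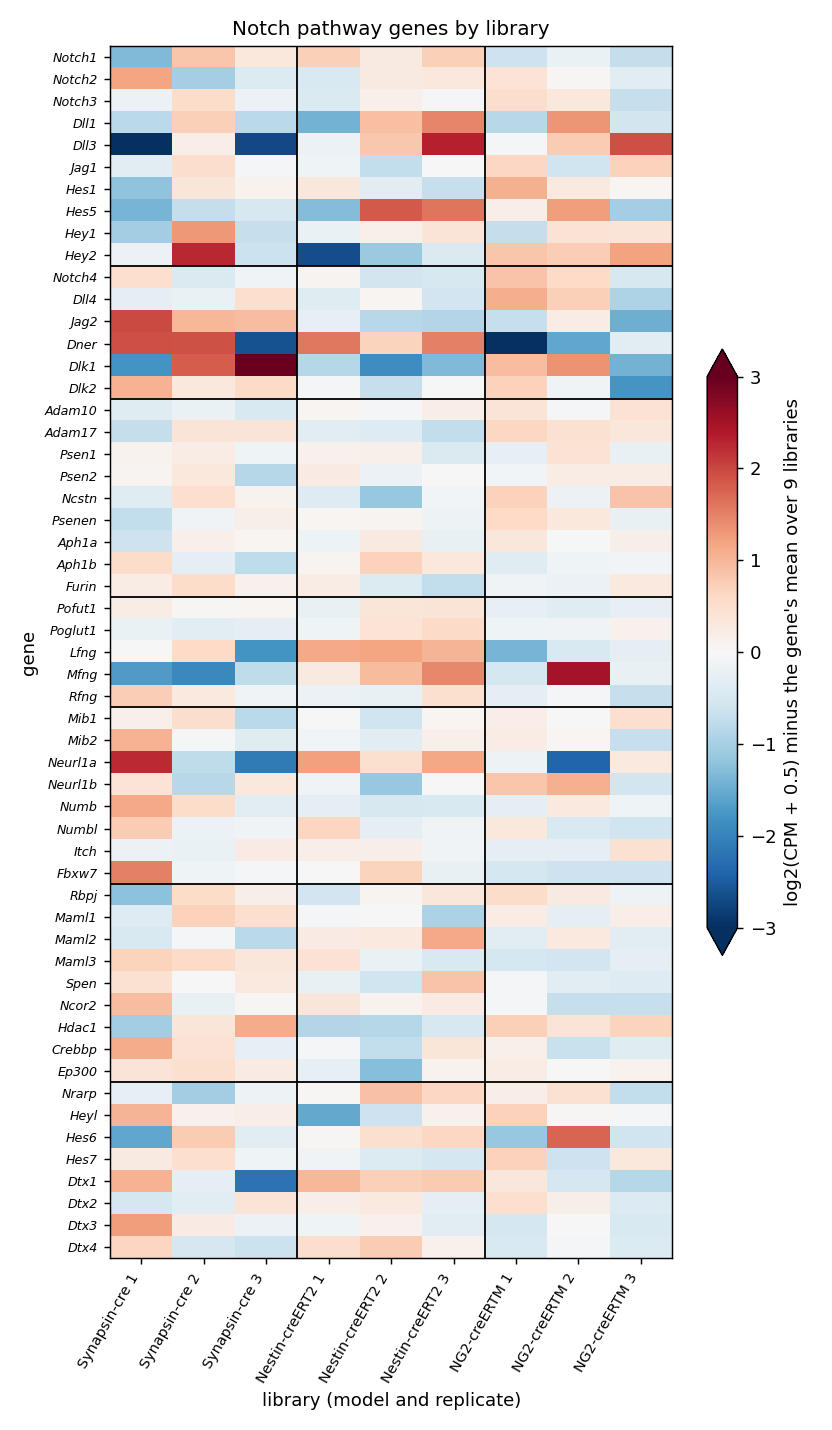
Log2(CPM + 0.5) of the 10 members (top block) and 45 other pathway genes in each library, minus the gene's mean over the 9 libraries, red for higher and blue for lower. Jag2 is red in all 3 Synapsin-cre libraries, where Mfng is blue, and Dll3 is darkest blue in Synapsin-cre replicates 1 and 3.

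For each member the genes with the most similar pattern were sought by Pearson's r of log2 CPM over the 9 libraries, among 13040 named protein-coding genes. With so many genes and 9 libraries some high values arise for any pattern, so these are descriptions. Closest to Notch1 was Cdh13 (r 0.96, and 0.94 without Synapsin-cre replicate 1), and closest to Notch2 was Lamb2 (0.96 and 0.92). Notch3 had the least close match, Mfsd14b (0.84 and 0.84). For the ligands the closest were Zfp729b for Dll1 (0.92, with a Spearman rho of 0.72), Scrg1 for Dll3 (0.95) and Timp3 for Jag1 (0.97). The transcription factor Sox21 was second for Dll1 (0.92). For the targets they were Nkx3-2 for Hes1 (0.96), Mterf1a for Hes5 (0.92), Ddt for Hey1 (0.96) and Rttn for Hey2 (0.96). The closest match was a different gene for each of the 10 members.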

How the data were processed

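The 9 libraries and their groups are those of the labels. The deposited files hold read counts per gene made by the authors, and the submitters' processing notes name STAR, HTSeq and mm10 without versions or roles. The annotation release is not given in the sources used here. Symbols and coordinates came from GENCODE vM21 (GRCm38), which matched 46005 of 46517 identifiers. The counts of the strand with most reads were used, since the other strand held 3.25 to 3.64%, and reads not in genes (17.9 to 27.3%) were left out. CPM used TMM size factors. Genes passing filterByExpr (17947) went into a quasi-likelihood fit of the 9 libraries by model (R 4.3.3, edgeR 4.0.16). Its p-values are 2-sided and were adjusted by Benjamini-Hochberg over those genes, with 0.05 as the threshold. The biological coefficient of variation common to all genes was 0.612. The code was tested on simulated data.

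The members and gene lists were chosen with earlier results of these data known. Named genes were the 10 members, the listed pathway genes at an unadjusted p under 0.05, and the 3 genes most like each member by Pearson's r of log2 CPM (prior count 2, mean of at least 2 CPM), of which not all are given. Heyl, Notch4 and Dll4 were added for the shares. Alternatives were size factors by relative log expression or upper quartile, another filter on low counts (1 CPM in 3 libraries) or none, limma 3.58.1 voom with and without quality weights, DESeq2 1.42.0, unstranded counts, fits of 2 models, and leaving out each library. Replicates were numbered in accession order and not paired. Python 3.11.15 and matplotlib 3.10.9 were used.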

Additional observations from a re-analysis of the deposited data

How the results depend on the processing

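Under every alternative run, 0 of 10 members passed the adjusted threshold in each test. The smallest adjusted p in a pairwise comparison was 0.0789 (edgeR). At most 868 of 17351 genes passed in any test (DESeq2, any difference). Beside so small a share of all genes, 0 of 10 is not a result about the members. The count over all genes was 0 in the test reported and moved as follows. For NG2-creERTM against Nestin-creERT2 it was 12 with no filter, 160 with voom quality weights, 621 with DESeq2, 237 with 2 models only and 0 to 124 with 1 library left out. For Synapsin-cre against Nestin-creERT2 it was 12, 266, 506, 5 and 0 to 273 in the same order, 1 with unstranded counts, and 431 with 2 models and no Synapsin-cre replicate 1. For Synapsin-cre against NG2-creERTM it was 438 with DESeq2, 1 with 2 models and no Synapsin-cre replicate 1, and 0 to 1 with 1 library left out. For any difference it was 23 with no filter, 94 with quality weights, 868 with DESeq2 and 0 to 346 with 1 library left out. Of the members' log2 fold changes under alternatives 506 kept their sign and 54 reversed, none of them past the adjusted threshold. Of those that reversed, Hey1 without Synapsin-cre replicate 2 (-1.04 against Nestin-creERT2 and -1.02 against NG2-creERTM) had an unadjusted p under 0.05. For NG2-creERTM against Nestin-creERT2, Notch2 became 0.0098 with relative log expression factors and with DESeq2 and 0.00058 with unstranded counts, Hey1 0.0032 with both of the first, and Dll3 0.054 with quality weights. For Synapsin-cre against Nestin-creERT2, no filter gave Notch2 -0.0042, Hes1 -0.045 and Hey1 -0.011, voom gave Notch2 -0.19 and Hey1 -0.23, quality weights gave Notch2 -0.78, and 2 models without Synapsin-cre replicate 1 gave Notch1 0.014 and Notch2 -0.79. For Synapsin-cre against NG2-creERTM, voom gave Notch2 -0.19, Notch3 0.030, Hey1 -0.16 and Hey2 -0.41. Quality weights there gave Notch2 -0.72, Notch3 0.36, Dll1 0.26 and Jag1 0.084, and 2 models without Synapsin-cre replicate 1 gave Notch2 -0.80 and Notch3 0.065. With 1 library left out, reversals came in these ranges. They were -0.22 to 0.15 (Notch2), -0.016 to 0.53 (Notch3), -1.46 to 0.14 (Dll1), -0.95 to 0.71 (Dll3) and -0.19 to 0.27 (Hey1) for NG2-creERTM against Nestin-creERT2. For Synapsin-cre against Nestin-creERT2 they were -0.91 to 0.011 (Notch1), -0.79 to 0.45 (Notch2), -0.14 to 0.34 (Notch3), -0.28 to 0.41 (Hes1) and -1.04 to 0.50 (Hey1). For Synapsin-cre against NG2-creERTM they were -0.78 to 0.46 (Notch2), -0.37 to 0.18 (Notch3), -1.19 to 0.59 (Dll1), -1.02 to 0.51 (Hey1) and -1.40 to 0.55 (Hey2). The cause of these shifts was not tested. No paired analysis was possible because the labels give no replicate numbers shared between models. Depth did not bring any member near 0, and the lowest count of a member in a library was 90 (Dll3, Synapsin-cre replicate 1).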
